A study of Rattus norvegicus with 8 samples.

Results

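Striatal dopamine signalling and neuropeptide genes were examined in rat brain tissue after injection of an inactivated baculovirus vector or of saline. The 9 genes are Drd1, Tac1 and Pdyn of the direct pathway, Drd2, Adora2a and Penk of the indirect pathway, and Ppp1r1b, Pde10a and Rgs9, which both pathways use. They are read by every probe set to which the platform annotation gives a single gene symbol that is one of these 9, in all 14 probe sets, and 14217 genes have a single-symbol probe set. The arrays were Affymetrix whole-genome rat arrays, on which a gene is read near its 3' end by 1 or more probe sets.

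In the inactivated baculovirus group, 4 arrays, adult male Wistar rats had received 5 µl with 50000000 particles of the vector in the striatum. The vector had been exposed on ice to ultraviolet light of 254 nm for 1 hour. In the PBS group, also 4 arrays, the injection was 5 µl of phosphate-buffered saline. Tissue was taken 48 hours after injection in both, so needle injury is common to the groups, and the rats' age is given only as adult. The design text names 7 rats with PBS on the other side of the brain and does not tie arrays to rats. If these are all the rats used, the 8 arrays cannot all come from different animals. The fits treat the arrays as independent, and the p-values measure the spread between these arrays. All values are from tissue, and fewer cells of a type cannot be told apart from less RNA per cell.

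Most neurons of the striatum are GABA-releasing spiny projection neurons of a pair of classes. Those of the direct pathway carry the dopamine receptor D1, which raises cyclic AMP, and release substance P and dynorphin. Those of the indirect pathway carry the dopamine receptor D2, which lowers cyclic AMP, together with the adenosine receptor of the gene Adora2a, which raises it, and release enkephalin. In both classes DARPP-32 passes the cyclic AMP signal on to protein phosphatase 1, the phosphodiesterase PDE10A breaks cyclic nucleotides down, and RGS9 shortens signalling through inhibitory G proteins.

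No change of these 9 genes was detected after inactivated baculovirus relative to PBS. Of the 14 probe sets, 13 were above the level filter (an average intensity of 26.4, the 40th percentile) and were tested, and 0 passed an adjusted p of 0.05 in limma, against 0% of the 18625 probe sets tested in either direction. By unadjusted p under 0.05, 1 of the 13 was lower and none was higher, against 4.21% of all probe sets lower and 2.5% higher. The methods' t-test with Benjamini-Hochberg adjustment also gave 0. Mean levels were lower after inactivated baculovirus for 10 of the 13 probe sets, against 46.3% of all probe sets tested, and for 7 of the 9 genes by their brightest probe set, against 44.3% of all genes tested. The median log2 fold change stood at -0.10 for the 9 genes and 0.02 for all 10546 genes tested. The 9 genes' median became -0.0059 without baculovirus replicate 1, -0.02 without PBS replicate 4, -0.04 without PBS replicate 2, and -0.16 and -0.17 without baculovirus replicate 4 or PBS replicate 1. In none of the 13 probe sets did the groups separate, against 2.31% of all probe sets that separated with the lower values after inactivated baculovirus and 1.55% with the higher. Fold changes are on the log2(intensity + 16) scale, which understates those of dim probe sets.

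**Figure D1:**
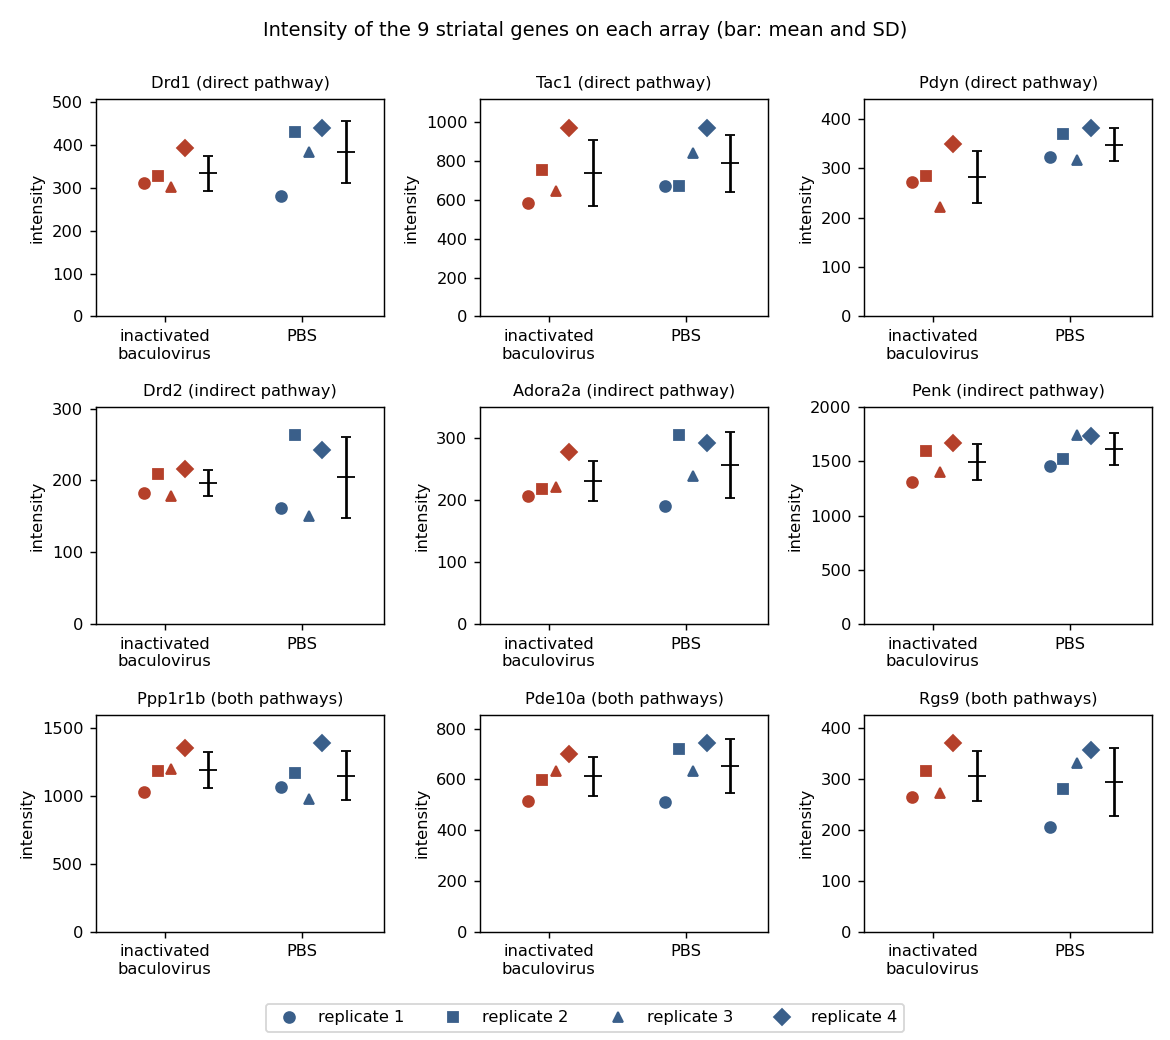
Deposited intensity (vertical axes, from 0, linear) of the brightest probe set of each gene on the 4 inactivated baculovirus arrays (red, left) and the 4 PBS arrays (blue, right). Symbols mark the replicate, and bars to the right of the points are the mean and SD. The groups overlap in every panel, and baculovirus replicate 4 is the highest of its group in all 9.

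Among direct pathway genes, Drd1, the gene of the D1 receptor, was at 311, 328, 303 and 392 in intensity on baculovirus replicates 1 to 4, against 280.3, 429.6, 384 and 441 on PBS replicates 1 to 4. Of the PBS arrays 2 lay above all baculovirus arrays and 1 more above 3 of them, but PBS replicate 1 was the lowest of all 8, so the groups overlapped. The means were 334 ± 40.3 in the baculovirus group and 384 ± 73.2 in the PBS group (SD, n = 4 each). The log2 fold change stood at -0.18 (95% interval -0.46 to 0.10; adjusted p = 0.788 in limma). A dimmer Drd1 probe set gave -0.17, and followed the brighter across the 8 arrays with r = 0.954.

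Tac1 encodes the precursor of substance P and neurokinin A. Its intensities were 583, 752, 643 and 969.7 after inactivated baculovirus, against 669, 668, 837 and 969.4 after PBS. Replicate 4 of both groups stood highest and at nearly the same level. The log2 fold change stood at -0.10 (95% interval -0.42 to 0.22; adjusted p = 0.914 in limma), smaller than the spread within a group.

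Pdyn encodes the precursor of the dynorphin peptides, which act on kappa opioid receptors. It was the member with the smallest p. Its brighter probe set was at 271, 284, 221 and 349 after inactivated baculovirus, against 322, 369, 317 and 382 after PBS. On 3 baculovirus arrays it lay below all PBS arrays, and baculovirus replicate 4 lay among them. The means were 281 ± 52.9 and 347 ± 32.5 (SD, n = 4 each), a log2 fold change of -0.30 ± 0.12 (SE; 95% interval -0.56 to -0.05) with an unadjusted p of 0.0223 and an adjusted p of 0.719 in limma. Without baculovirus replicate 3, its lowest array, the log2 fold change stood at -0.20. The second Pdyn probe set had a higher mean after inactivated baculovirus, with 58.5, 48.0, 52.5 and 33.2 after inactivated baculovirus, against 30.1, 47.7, 23.6 and 68.4 after PBS, and a log2 fold change of 0.18 (95% interval -0.27 to 0.63; adjusted p = 0.879 in limma). This value rested on single arrays, being 0.01 without PBS replicate 3 and 0.38 without PBS replicate 4. Across the 8 arrays the Pdyn probe sets did not follow each other (r = -0.124), unlike those of Drd1.

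Sequence upstream of the start was in the RefSeq table (build GRCr8) for 6 of the 9 genes. Both neuropeptide genes of the direct pathway are shown because cyclic AMP signalling through the D1 receptor is known to drive them. Each is the 250 bases before the annotated start, 5′ to 3′ on the gene's own strand. Capitals mark TGACG or its reverse complement CGTCA, the core of the cyclic AMP response element, and TATAAA on the gene's strand.
Tac1 (chr4:36645333-36645582, plus strand): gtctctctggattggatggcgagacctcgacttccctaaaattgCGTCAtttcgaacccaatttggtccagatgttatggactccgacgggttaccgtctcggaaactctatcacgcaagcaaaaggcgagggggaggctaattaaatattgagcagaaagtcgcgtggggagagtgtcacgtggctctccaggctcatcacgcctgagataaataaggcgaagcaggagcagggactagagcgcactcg
Pdyn (chr3:137366504-137366753, minus strand): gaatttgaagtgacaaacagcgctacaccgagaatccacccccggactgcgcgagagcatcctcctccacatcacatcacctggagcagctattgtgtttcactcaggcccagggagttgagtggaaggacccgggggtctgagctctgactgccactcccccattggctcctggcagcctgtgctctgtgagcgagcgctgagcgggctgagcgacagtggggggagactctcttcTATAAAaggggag
Tac1 held 1 such core, and Pdyn held none but had a TATAAA run that begins 13 bases before the start. The core occurs on either strand in 18.2% of the 33469 RefSeq windows of this length, and TATAAA in 8.06%. The full element TGACGTCA, found in 1.59% of windows, was in none of the 7 windows of these genes, which include a pair for Pde10a.

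Of the indirect pathway genes, Drd2, which encodes the D2 receptor, was at 183, 209, 178 and 216 after inactivated baculovirus, against 162, 263, 151 and 242 after PBS. The baculovirus arrays lay close together, inside the wider range of the PBS arrays. Means were 196 ± 18.4 and 205 ± 56.1 (SD, n = 4 each) and the log2 fold change stood at -0.02 (95% interval -0.35 to 0.30; adjusted p = 0.989 in limma).

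Adora2a, the adenosine receptor gene, was at 207, 219, 221 and 277 after inactivated baculovirus, against 189.8, 305, 238 and 293 after PBS. PBS replicate 1 was the lowest array and PBS replicate 2 the highest. The log2 fold change stood at -0.13 (95% interval -0.42 to 0.16; adjusted p = 0.863 in limma). In a dimmer probe set all 4 baculovirus arrays, at 49.7, 44.7, 48.2 and 62.0, lay below 3 PBS arrays at 87.0, 83.0 and 82.1 and above PBS replicate 1 at 35.8. Its log2 fold change stood at -0.34 (95% interval -0.75 to 0.07; adjusted p = 0.760 in limma), and -0.58 (adjusted p = 0.643) without PBS replicate 1.

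Penk encodes the enkephalin precursor. It was at 1314, 1598, 1406 and 1669.8 after inactivated baculovirus, against 1463, 1521, 1742 and 1733 after PBS. The means of 1497 ± 165 and 1615 ± 144 (SD, n = 4 each) differed by less than 1 SD. Its log2 fold change stood at -0.11, with the narrowest interval of the 9 genes, -0.30 to 0.08 (limma adjusted p = 0.812).

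Ppp1r1b, which encodes DARPP-32, was at 1034, 1183, 1199.5 and 1354 after inactivated baculovirus, against 1066, 1172, 976 and 1393 after PBS. The 2 sets of arrays covered almost the same range, with means of 1193 ± 131 and 1152 ± 179.7 (SD, n = 4 each). For Pde10a the intensities were 516, 597, 633 and 700.3 after inactivated baculovirus, against 510.2, 720.1, 632 and 743 after PBS. Its log2 fold change stood at -0.08 (95% interval -0.33 to 0.17; adjusted p = 0.904 in limma). A second Pde10a probe set, at 137 to 188 after inactivated baculovirus and 139 to 198 after PBS, gave -0.01 and followed the brighter one with r = 0.878.

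Rgs9 was at 265, 315, 272 and 371 after inactivated baculovirus, against 205, 280.3, 331 and 358 after PBS. Here too replicate 4 was highest in both groups. The log2 fold change stood at 0.07 (95% interval -0.25 to 0.39; adjusted p = 0.942 in limma). The remaining Rgs9 probe set was under the level filter, at no more than 23.4 after inactivated baculovirus and 20.1 after PBS, and was not tested. Over the brightest probe sets of the 9 genes, the 95% intervals together reached from -0.56 to 0.39.

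**Figure D2:**
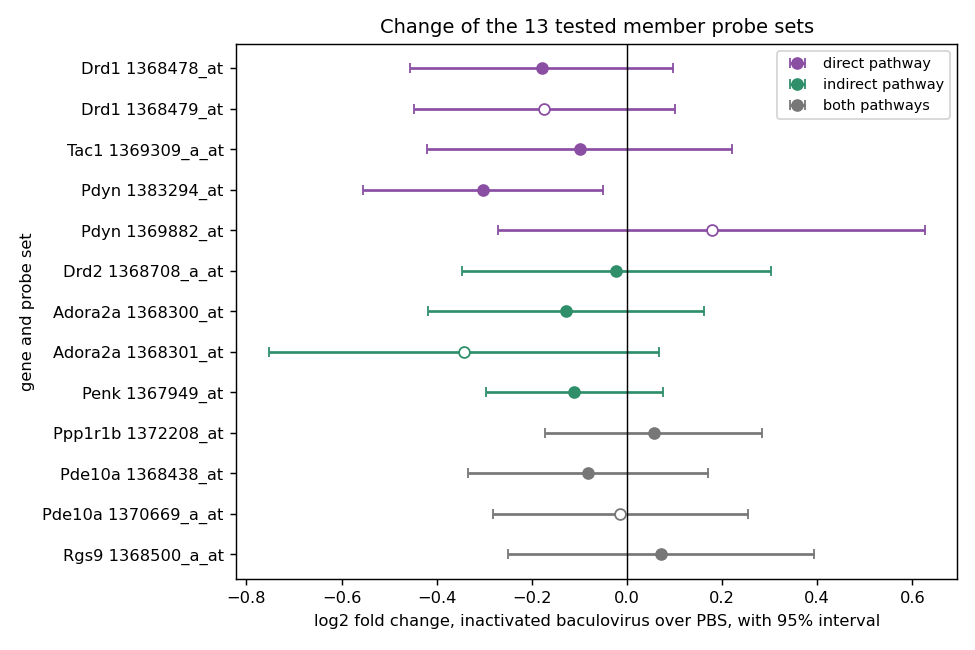
Log2 fold change of inactivated baculovirus over PBS (horizontal axis, limma, with 95% intervals) for the 13 tested probe sets of the 9 genes. Filled circles are the brightest probe set of a gene and open circles the others. The interval lies wholly on one side of 0 only for the brighter Pdyn probe set, at -0.30, while the other Pdyn probe set stands at 0.18.

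Direct and indirect pathway genes were then set against each other. The median log2 fold change stood at -0.18 over Drd1, Tac1 and Pdyn, -0.11 over Drd2, Adora2a and Penk, and 0.06 over Ppp1r1b, Pde10a and Rgs9. Direct minus indirect, taken as medians, was -0.07, but it was 0.01 with the mean of all probe sets of a gene in place of the brightest. For a value on every array, each gene's log2 level was centred on its mean over the 8 arrays. The direct minus indirect level was then -0.06, -0.07, -0.17 and 0.08 on baculovirus replicates 1 to 4, against 0.08, -0.11, 0.16 and 0.08 on PBS replicates 1 to 4. It was below 0, which is its average over the 8 arrays, on 3 of 4 baculovirus arrays and 1 of 4 PBS arrays. The means were -0.05 ± 0.10 and 0.05 ± 0.12 (SD, n = 4 each), and the ranges overlapped. Centring makes these means mirror each other, so they hold a single difference, of -0.11. In all 9 pairs of a direct with an indirect gene the log2 difference between them overlapped between the groups. The shift between groups of that difference was negative in 7 pairs, from -0.28 for Pdyn with Drd2 to -0.05 for Drd1 with Adora2a, and 0.01 and 0.03 for Tac1 with Penk and with Adora2a.

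**Figure D3:**
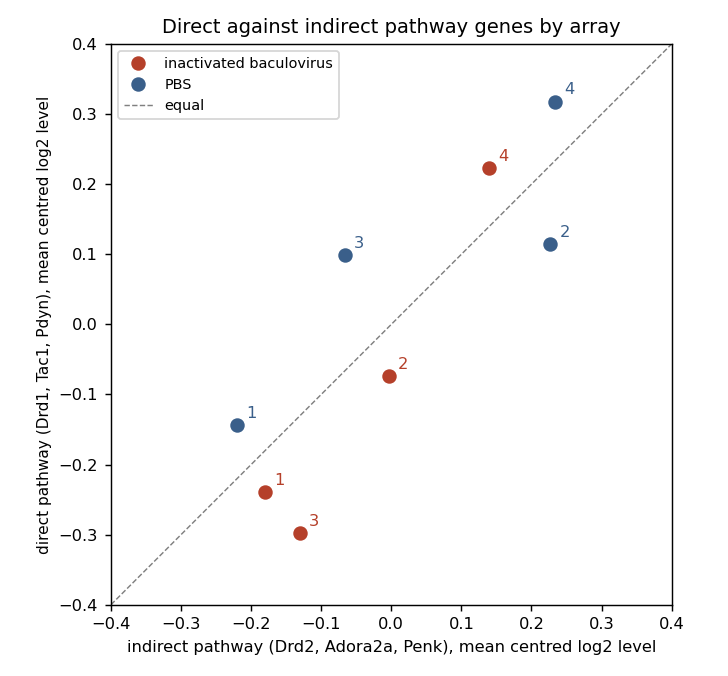
Mean centred log2 level of the direct pathway genes (vertical axis) against that of the indirect pathway genes (horizontal axis) on each array, with inactivated baculovirus in red, PBS in blue and the replicate number beside each point. The arrays spread along the dashed line of equal levels, with baculovirus replicate 4 and PBS replicate 4 at the top, more than away from it.

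The 9 genes differed more between arrays of one group than between the groups. Their mean centred log2 level was -0.20, -0.02, -0.15 and 0.20 on baculovirus replicates 1 to 4, against -0.22, 0.13, 0.0019 and 0.27 on PBS replicates 1 to 4. The group means differed by -0.09, with an SD between arrays of 0.18 after inactivated baculovirus and 0.21 after PBS. Baculovirus replicate 4 was the highest baculovirus array for 9 of 9 genes, and PBS replicate 4 the highest PBS array for 6 of 9. At the low end, baculovirus replicate 1 was lowest in its group for 6 genes and PBS replicate 1 in its group for 5. Over the 8 arrays the SD of the log2 level had a median of 0.24 over the 9 genes and 0.14 over all genes tested, each by its brightest probe set. Array medians over all probe sets spanned 5.74 to 5.85 on the log2 scale, less than the span of the 9 genes.

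Over the 8 arrays all 36 pairs of the 9 genes correlated above 0. Pearson's r had a median of 0.67 and Spearman's rho a median of 0.62, where all 55603785 pairs of tested genes had a median r of -0.0050 and a 95th percentile of 0.688. The points share an array and its scaling, and possibly a rat, so these are descriptions. Within groups, after subtraction of each group's mean, the median r over the 36 pairs was 0.66, and without PBS replicates 4 and 1, the arrays farthest from the median level, it was 0.52. Drd1 and Adora2a, a dopamine and an adenosine receptor gene of different neuron classes, gave the highest r of 0.957, with a rho of 0.90. The precursor genes Tac1 and Penk, again 1 of each pathway, gave 0.92. By contrast Drd2 was loosely tied to both, with r = 0.21 to Penk of its own pathway and 0.27 to Tac1. Pairs across the pathways had a median r of 0.67, against 0.66 within the direct and 0.57 within the indirect pathway.

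**Figure D4:**
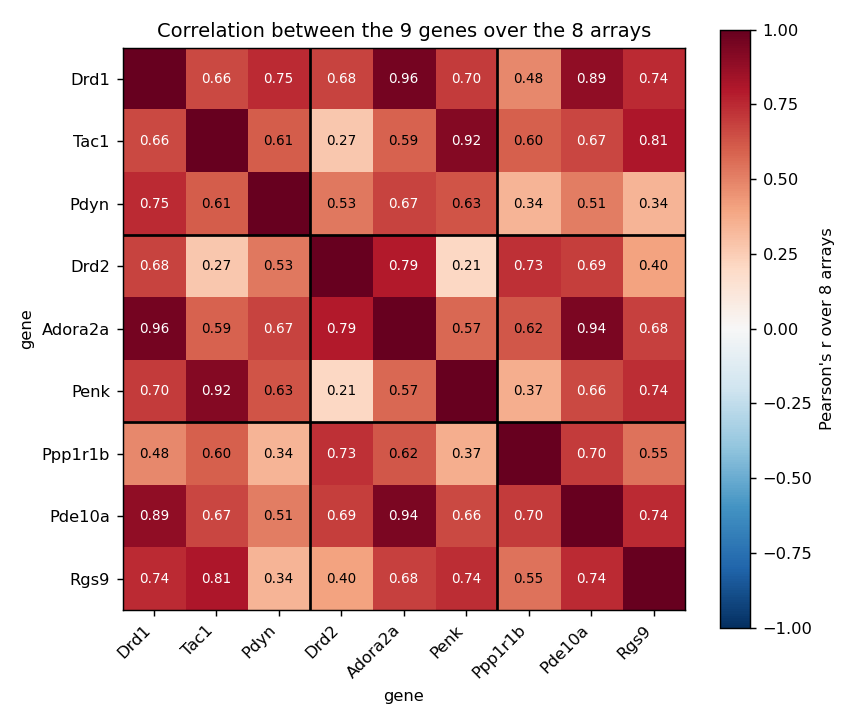
Pearson's r over the 8 arrays between the log2 levels of each pair of the 9 genes, with lines between direct pathway (Drd1, Tac1, Pdyn), indirect pathway (Drd2, Adora2a, Penk) and shared genes. All cells are above 0, from 0.21 for Drd2 with Penk to 0.96 for Drd1 with Adora2a, and the blocks across pathways are about as dark as those within.

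Of the shared genes, Pde10a is shown upstream of the more distal of its starts in the table, which held 2 cores of the cyclic AMP response element, marked as above. Its r was 0.94 with Adora2a and 0.89 with Drd1.
Pde10a (chr1:54765669-54765918, minus strand, build GRCr8): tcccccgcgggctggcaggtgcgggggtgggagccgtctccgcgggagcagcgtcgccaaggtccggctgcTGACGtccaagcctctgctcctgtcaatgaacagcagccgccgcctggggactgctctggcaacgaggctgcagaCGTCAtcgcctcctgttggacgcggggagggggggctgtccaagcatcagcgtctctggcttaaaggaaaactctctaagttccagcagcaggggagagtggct
The window at its other start held none, and neither did those of Drd1, Drd2 and Rgs9. The match is of letters only.

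Of the genes outside the 9, those most like the mean level of the 9 over the 8 arrays were ranked by Pearson's r among 10537 genes. The most extreme of so many values over 8 arrays are large partly through the search itself. These rankings, with those for single genes, are descriptions and were not tested. The astrocyte glutamate transporter Slc1a3 came first with r = 0.971, at 1137, 1167, 1159 and 1351 in intensity after inactivated baculovirus, against 1075, 1299, 1243 and 1440.0 after PBS. It stood highest on replicate 4 and lowest on replicate 1 in both groups, and put the 8 arrays in the same order as the 9 genes (rho = 1). Aldoc, another gene of the astrocyte list, was also lowest on replicate 1 and highest on replicate 4 of both groups. It was at 1550, 1716, 1623 and 1775 after inactivated baculovirus, against 1555, 1606, 1750 and 1797 after PBS. The astrocyte list as a whole varied over a narrower range, lowest on replicate 1 of both groups but not highest on replicate 4. Its 7 genes had a mean centred log2 level of -0.03, 0.02, 0.01 and 0.0053 after inactivated baculovirus, against -0.10, 0.0054, 0.05 and 0.04 after PBS, and Slc1a2, the other astrocyte glutamate transporter, was lower on replicate 4 than on replicate 1 in both groups. Tbc1d16, Fip1l1, Ryr3, a ryanodine receptor, and Nexn followed with r from 0.966 to 0.941. Next came Rasd2, a small G protein also called Rhes that is rich in striatum, Adra2c, an adrenergic receptor, Pde1b, a calmodulin-dependent phosphodiesterase, Coro7 and Pbx3, with r from 0.937 to 0.924. None of these 10 passed, with log2 fold changes from -0.14 for Ryr3 to -0.0033 for Coro7. Taken singly, the closest gene was Pcp4 for Penk (r = 0.980), Cherp for Drd2 (0.978), Ceacam1 for Rgs9 (0.969), Nmnat2 for Ppp1r1b (0.968), Fip1l1 for Adora2a (0.961), Ndufa4 for Tac1 (0.959), Rbms3 for Drd1 (0.958), Rasd2 for Pde10a (0.945) and Papss2 for Pdyn (0.907).

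At the opposite end stood Orm1, which encodes an acute-phase plasma protein, with r = -0.972. It was at 140.1, 58.6, 76.7 and 15.1 after inactivated baculovirus, against 115, 35.3, 44.9 and 17.5 after PBS. Orm1 was thus high on replicate 1 and low on replicate 4 of both groups, the reverse of the striatal genes. Nup42, Cfap300, the small heat shock protein Hspb8 and Alas1, the first enzyme of heme synthesis, followed with r from -0.965 to -0.946.

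Other measures that moved with the 9 genes on some arrays are given as values, and their part in these levels was not tested. The interferon response list, 9 of 10 genes on the array, was at 1.21, 0.35, 0.57 and -1.06 in mean centred log2 level on baculovirus replicates 1 to 4, against -0.42, -0.61, -0.45 and 0.41 on PBS replicates 1 to 4. Baculovirus replicate 4 was the lowest of all 8 arrays, and PBS replicate 4 stood above baculovirus replicate 2, so the list did not separate the groups. Its means were higher after inactivated baculovirus for 9 of 9 tested genes, with 0 called, against 5875 of all 10546 genes tested. On the baculovirus arrays the list ran opposite to the striatal genes, but on PBS replicate 4 both were high. The summed intensity of the interferon list was 344 to 2533 after inactivated baculovirus and 571 to 1463 after PBS. The microglia list, 8 of 8 genes on the array, was at 0.23, -0.02, 0.15 and -0.17 after inactivated baculovirus, against -0.13, -0.27, 0.22 and -0.02 after PBS. It put the baculovirus arrays in the reverse order of the striatal genes but not the PBS arrays. Its means were higher after inactivated baculovirus for 7 of 8 genes, with 0 called, and it summed to 1832 to 2474 after inactivated baculovirus and 1622 to 2479 after PBS. The beta-actin 3' minus 5' difference, a measure of RNA and labelling quality, was 0.36, 0.51, 0.40 and 0.72 after inactivated baculovirus, against 0.57, 0.62, 0.46 and 0.41 after PBS. It put the baculovirus arrays in the same order as the striatal genes did. On PBS replicate 4, where these genes were highest, it was lowest of the PBS arrays.

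**Figure D5:**
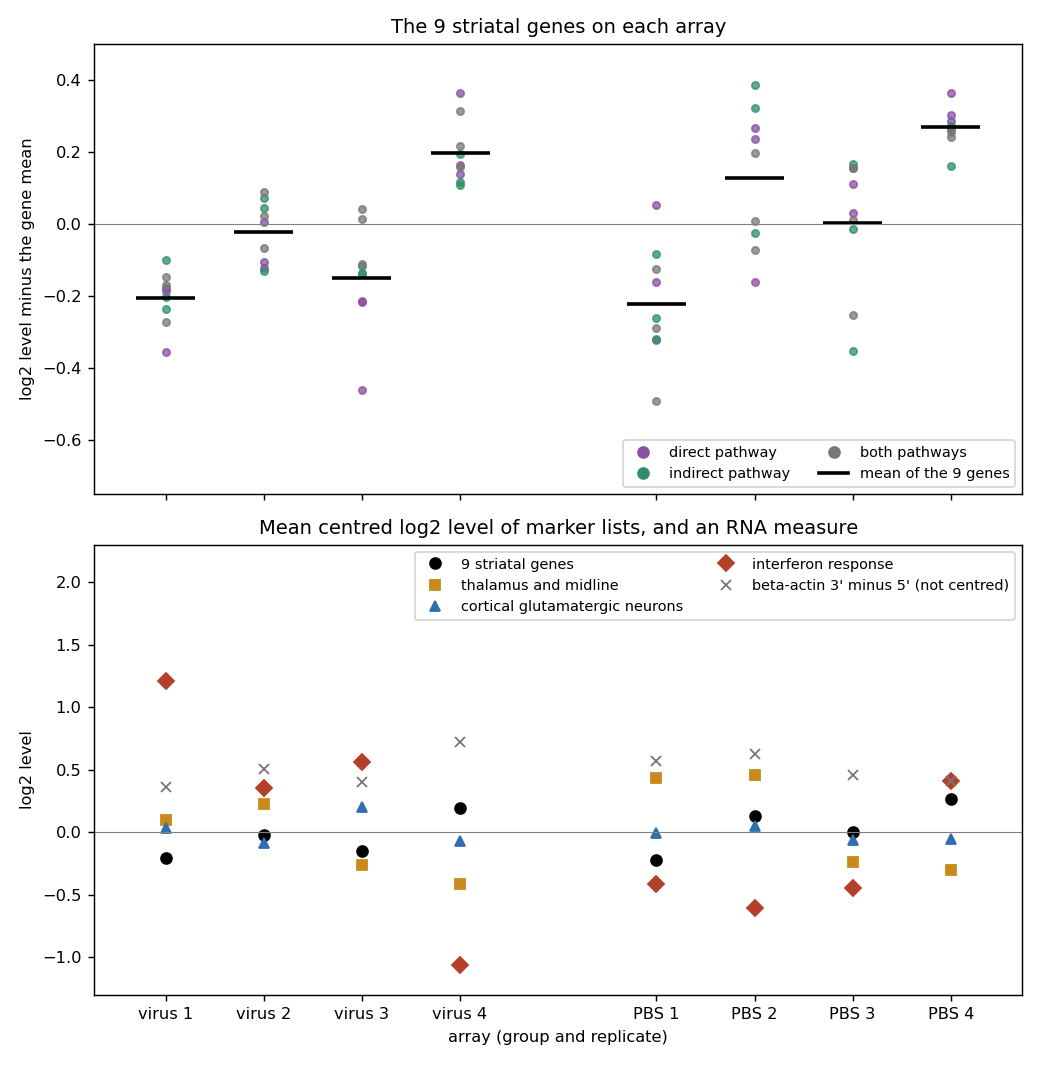
Upper panel, log2 level minus the gene's mean for the 9 genes (points) and their mean (bars) on each array. Lower panel, that mean with the mean centred log2 levels of 3 marker lists and the uncentred beta-actin 3' minus 5' log2 difference; the 9 genes are highest on replicate 4 and lowest on replicate 1 of both groups, at 0.20 and -0.20 after inactivated baculovirus and 0.27 and -0.22 after PBS.

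The labels call the tissue only brain, and markers of regions near the striatum were detected beside the striatal genes. Of 9 cortical glutamatergic markers, 8 were on the array, and their summed intensity was 1473 to 1933 after inactivated baculovirus and 1089.6 to 1691 after PBS. The vesicular glutamate transporter Slc17a7, which striatal projection neurons lack, was at 909 to 1270.5 after inactivated baculovirus and 454 to 1108 after PBS. It was the largest part of the cortical sum on every array. All 4 thalamus and midline markers were present, at a sum of 437 to 727 after inactivated baculovirus and 489 to 884 after PBS, with mean centred levels of 0.10, 0.22, -0.26 and -0.41 against 0.43, 0.46, -0.24 and -0.30. They were low on the arrays numbered 4, where the striatal genes were high, yet high on PBS replicate 2, where these were also above average. Choroid plexus markers, 7 of 8 on the array, summed to 1772 to 2250.3 after inactivated baculovirus and to 166 to 2127 after PBS, the lowest on PBS replicate 4. Except on that array, most of the sum was 1 gene, Ttr, at 1563 to 1968 after inactivated baculovirus. Ttr was at 47.7 on PBS replicate 4, against 1787 to 1888 on the other PBS arrays. The cortical marker Tbr1 and the choroid plexus markers Kl, Kcnj13 and Otx2 were below the level filter.

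The rest of the dopamine and cyclic AMP signalling pathway gave 0 calls either way among 25 tested genes of a list of 30, with 8 means higher and 17 lower. Their median log2 fold change stood at -0.05, between that of the 9 genes and that of all genes. Ppp1cb, a catalytic subunit of protein phosphatase 1, the enzyme that DARPP-32 inhibits, had the smallest p. It was at 540.4, 542, 584 and 474 after inactivated baculovirus, against 622, 641, 625 and 591 after PBS. These arrays did not overlap, with a log2 fold change of -0.21 ± 0.07 (SE, limma adjusted p = 0.690), and the gene was chosen by a rule of smallest p. Ppp3ca, the calcineurin subunit that reverses DARPP-32 phosphorylation, was at -0.12 ± 0.07 and Arpp19, a phosphatase regulator, at -0.13 ± 0.08. The receptor genes Drd3, Drd4 and Drd5 were below the level filter.

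Genes of dopamine synthesis, transport and breakdown gave 0 calls among 6 tested, with 3 means higher and 3 lower. The monoamine oxidase gene Maob was at 549.6, 497, 541 and 455 after inactivated baculovirus, against 573, 578, 599.9 and 585 after PBS. Its groups did not overlap, at a log2 fold change of -0.19 ± 0.07 (SE, limma adjusted p = 0.714). Ddc, which makes dopamine from L-DOPA, was at -0.19 ± 0.10, and the dopamine transporter gene Slc6a3 at 0.21 ± 0.12. Slc6a3 was close to the level filter, at 29.1 to 40.3 in intensity after inactivated baculovirus and 21.7 to 36.0 after PBS. Th, the rate-limiting enzyme of dopamine synthesis, whose transcript lies mainly in midbrain cell bodies, was below the filter at 18.8 to 34.3 after inactivated baculovirus and 17.5 to 26.3 after PBS.

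For neuropeptide processing, receptors and other neuropeptides, 15 of 19 listed genes were tested, 8 with higher and 7 with lower means and 0 called. The median log2 fold change stood at 0.0013. Those with the smallest p were Chga, a granin of dense-core vesicles, at 0.15 ± 0.08 (log2 fold change ± SE), Tacr1, the substance P receptor, at 0.18 ± 0.11, and Pcsk2, a convertase that cuts neuropeptide precursors, at 0.15 ± 0.12. The kappa opioid receptor gene Oprk1 was tested, while those of the mu and delta receptors, Oprm1 and Oprd1, lay below the filter.

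Transcription factors of projection neurons had lower means for 7 of 7 tested genes, against 44.3% of all genes tested. Their median log2 fold change was -0.13, with 0 called. Bcl11b stood at 263 to 357 after inactivated baculovirus and 348 to 495 after PBS, and was the list's lowest at -0.39 ± 0.11 (SE, limma adjusted p = 0.690), though 1 of its 2 other probe sets had the opposite sign. Meis2 and Foxp2 were at -0.28 ± 0.09 and -0.18 ± 0.10. Among interneuron markers, 4 of 6 were tested, 3 with higher means and 1 lower. The lower one was Slc5a7, the choline transporter of cholinergic neurons, at -0.33 ± 0.13 (limma adjusted p = 0.719). It was dim, at 34.1 to 42.6 after inactivated baculovirus and 39.6 to 70.3 after PBS, the highest on PBS replicate 4. Chat, another cholinergic marker, and Nos1 were below the filter. The mean of Chat was 27.0 after inactivated baculovirus and 25.2 after PBS. Sst and Pvalb, markers of GABAergic interneurons, were at 0.07 ± 0.09 and 0.09 ± 0.12. Of 8 markers of all neurons, 3 had higher and 5 lower means, with Nefl at -0.28 ± 0.09, Rbfox3 at 0.13 ± 0.09 and Eno2 at -0.08 ± 0.07, none past the threshold.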

How the data were processed

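Gene expression was measured on 8 single-colour Affymetrix arrays, 4 after inactivated baculovirus and 4 after PBS, grouped by the labels. The deposited values are linear intensities per probe set, and the submitters' processing notes name GCOS and GCRMA without saying which of them made the deposited values. Every array had the same trimmed mean of 100.02 (2% left out at each end), so the arrays had been scaled before deposit. No scanner files were used, and the number of arrays limits the precision. Of 31099 probe sets, 57 controls were left out, 20826 had 1 gene symbol in the platform annotation, 436 several and 9780 none. Values were tested as log2(intensity + 16) with limma 3.58.1 (R 4.3.3, variance trend, no block) over the 18625 probe sets above the 40th percentile of mean intensity, with Benjamini-Hochberg adjustment. A gene was represented by its single-symbol probe set of highest mean. Over the probe sets tested, arrays of the same replicate number did not deviate together from their group means, and no label ties them. No pairing was therefore used in the main fit. That check is over all probe sets tested and does not settle pairing for the 9 genes. Their mean level was lowest on replicate 1 and highest on replicate 4 of both groups. A block by number gave their brightest probe sets smaller SEs.

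The members and gene lists were chosen with earlier results of these data known. Genes outside the 9 were named by rule, as the 3 with the smallest p of a pathway list and the 10 most and 5 least like the 9 over the arrays and the closest to each of them, apart from some markers named for their role. Upstream sequences came from RefSeq tables of build GRCr8 by symbol, and Adora2a, Penk and Ppp1r1b had no entry there. The test was checked on simulated data, and alternative pseudocounts, scalings, filters, weights, tests and left-out arrays were run.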

Additional observations from a re-analysis of the deposited data

Results flagged for a closer look

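An array that stood far from the 3 others of its group was found in 6 of 174 groups of values examined, where chance gives about 1 in 20. The dimmer Adora2a probe set was at 35.8 on PBS replicate 1, with the other PBS arrays at 82.1 to 87.0. The mean centred level of the choroid plexus markers was -1.11 on PBS replicate 4 and 0.09 to 0.17 on the other PBS arrays. Slc17a7 was at 454 on PBS replicate 3, against 1039 to 1108 on the others. The neuronal enolase gene Eno2 was at 1196 on baculovirus replicate 1 and 1369 to 1381 on the others. On baculovirus replicate 4, Slc1a3 was at 1351 and Pbx3 at 399, with 1137 to 1167 and 302 to 316 on the other baculovirus arrays.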

How the results depend on the processing

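No probe set of the 9 genes passed an adjusted p of 0.05 in any setting run, and the smallest adjusted p of any was 0.360, for the brighter Pdyn probe set without both arrays numbered 4, a setting chosen after seeing the data. That setting gave 2 calls over all probe sets, and every other setting gave 0. The log2 fold change of that Pdyn probe set stayed below 0, from -0.41 to -0.20 with 1 array left out. The median over the 9 genes ran from -0.17 to -0.0059 with 1 array left out. Direct minus indirect ran from -0.16 to -0.03 with 1 array left out, was -0.19 without both arrays numbered 1, and was 0.01 with the mean of all probe sets of a gene. With 1 array left out, the brighter probe sets ran from -0.32 to -0.11 for Drd1, -0.26 to -0.04 for Adora2a, -0.19 to -0.0059 for Pde10a and -0.16 to -0.05 for Penk. The dimmer Pdyn probe set ran from 0.01 to 0.38, and was 0.0061 without both arrays numbered 1 and 0.50 without both numbered 4. Signs turned for probe sets near 0. With 1 array left out, the log2 fold change ran from -0.14 to 0.10 for Drd2, -0.24 to 0.0057 for Tac1, -0.10 to 0.072 for the dimmer Pde10a probe set, -0.080 to 0.17 for Rgs9 and -0.019 to 0.15 for Ppp1r1b. Without both arrays numbered 4 it was 0.022 for Drd2 and 0.027 for the dimmer Pde10a probe set, and without both arrays numbered 1 it was -0.019 for Rgs9. The cause of these turns was not tested. The same replicate numbers occur in both groups. After subtraction of each group's mean, arrays of the same number correlated at -0.0031, 0.0203, 0.0089 and 0.0010 over the probe sets tested. No baculovirus array was best matched by the PBS array of its own number. The mean level of the 9 genes did follow the number at its ends, lowest on replicate 1 and highest on replicate 4 of both groups, and whether the numbers mark anything shared cannot be told from the labels. The fit with the replicate number as a block gave 0 calls, and 1166 probe sets at unadjusted p under 0.05 against 1251 without it. The block lowered the SE of the brightest probe set of each of the 9 genes, as from 0.149 to 0.093 for Tac1. It raised that of the dimmer Pdyn probe set from 0.208 to 0.215. In this limma fit the brighter Pdyn probe set had an SE of 0.093, an unadjusted p of 0.0072 and an adjusted p of 0.789. That probe set was lower after inactivated baculovirus in 4 of 4 numbers. With 4 arrays a group, 95% intervals of log2 fold changes extended to either side by a median of 0.28 for the 13 probe sets and 0.23 for all.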

Other observations

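The 4 thalamus and midline markers are given by array here. Slc17a6, the vesicular glutamate transporter of thalamic neurons, was at 209, 186, 122 and 107 in intensity on baculovirus replicates 1 to 4, against 285, 278, 114 and 142 on PBS replicates 1 to 4. Tcf7l2, a transcription factor of thalamic neurons, was at 224, 204, 133 and 111 after inactivated baculovirus, against 247, 281, 149.7 and 124 after PBS. Prkcd was at 188, 229, 157 and 140 after inactivated baculovirus, against 233, 215, 140 and 156 after PBS. For Slc17a6, Prkcd and this probe set of Tcf7l2, replicates 1 and 2 stood above replicates 3 and 4 in both groups. Of the 4 other Tcf7l2 probe sets, 3 had a group difference of the opposite sign. Lef1, another marker of the list, did not follow this order, with 69.5, 107.7, 83.7 and 78.2 after inactivated baculovirus, against 105.6, 110.8, 95.1 and 66.3 after PBS. This was seen after the values were known, and no group of samples was made from it.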
